A study of Mus musculus with 10 samples.

Results

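NRF2, encoded by Nfe2l2, is the transcription factor that switches on antioxidant and detoxification enzymes, and 10 genes of this system were followed in BMEL cells whose microRNA miR-30a had been targeted. The rule that chose the members went by symbol and used no measured values, though earlier results of these data were known. The members are Nfe2l2, Keap1, Nqo1, Hmox1, Gclc, Gclm, Txnrd1, Srxn1, Gsr and Gsta4. They are 10 of the 18193 genes that the array annotation gives with a symbol of their own, and they have 20 probe sets. No member differed between antisense and scrambled cells beyond the test's threshold. For the brightest probe sets of 9 of the 10, all but Hmox1, the separate 95% intervals lay between 0.780-fold and 1.17-fold. These intervals come from a fit that leaves out the arrays' replicate numbers, and they are not adjusted for the number of genes. That of Hmox1 reached 1.47-fold, and among the dimmer probe sets that of Nfe2l2 reached 1.28-fold.

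BMEL cells are a mouse embryonic liver line that can take on hepatocyte or bile duct features. Both groups were transfected with an LNA (locked nucleic acid) oligonucleotide by Oligofectamine, so both carried the reagent and the chemistry: 5 arrays had the oligonucleotide antisense to miR-30a and 5 had a scrambled one. All arrays are of this 1 line, and the labels give no genotype, dose or time after transfection. The labels do not say whether replicates were separate cultures, so the p-values speak only of the variation among these 10 arrays, and that variation may be technical.

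Under basal conditions the adaptor KEAP1 holds NRF2 in the cytoplasm and presents it to a CUL3 ubiquitin ligase for destruction. Electrophiles and oxidants modify cysteines of KEAP1, NRF2 accumulates, pairs with small MAF proteins and binds antioxidant response elements in its target genes. In liver these targets make glutathione, keep thioredoxin reduced, break down heme and conjugate reactive products. Much of the control of NRF2 is on the protein, which arrays of RNA do not measure.

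The microRNA that the antisense oligonucleotide was directed at is shown first, since its seed (bases 2 to 8, in capitals) is what pairs with target transcripts. From RefSeq (GRCm38.p6), mmu-miR-30a-5p lies at chr1:23272274-23272295 on the plus strand. The sequences shown are not the whole family that shares this seed. The RefSeq table used here is not complete, and of its 4 mature sequences with this seed miR-384-5p is not shown. Among its entries miR-30e-5p, from chr4:120772660-120772681 on the minus strand, differs from miR-30a-5p at 1 base. The sequence of miR-30c-5p, the same in the entries Mir30c-1 and Mir30c-2, is shown as well.
miR-30a-5p: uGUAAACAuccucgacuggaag
miR-30e-5p: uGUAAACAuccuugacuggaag
miR-30c-5p: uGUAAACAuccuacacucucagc
The level of miR-30a itself was not analysed here, so the knockdown was not checked on these arrays.

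The array medians lay between 5.21 and 5.24 on the deposited log2 scale. The simple epithelial keratins of liver progenitors were high on average over the arrays (Krt8 at 13.8, Krt18 at 13.7 and Krt19 at 13.5), as were Cdh1 (11.2) and Hnf4a (10.7). Other markers of the same list were much lower, with Sox9 at 7.27, Afp at 6.38 and Epcam at 6.33. The hepatocyte product Alb lay at 4.71, just above the level of 4.56 under which genes were left out. Ttr, a hepatocyte carrier protein, had a mean of 8.79 in scrambled and 7.62 in antisense arrays (limma adjusted p = 0.0574, and 0.000812 with the replicate number as a block). No other of the 10 liver epithelial markers tested was called by either fit. Sox9 came near, 0.17 higher with antisense (limma adjusted p = 0.0662, and 0.0571 with the block). Its groups did not overlap, while those of Ttr did. Of the 10 markers 8 lay below 0 and 2, Sox9 and Afp, above, where 44.9% of all genes lay below. Of other cell types, 5 of 7 mesenchymal, 3 of 6 endothelial and 4 of 8 blood markers were tested. Their mean levels reached up to 5.66 (Des), 8.22 (Flt1) and 6.44 (Csf1r). Pecam1, Cdh5 and Ptprc were among those under the filter level, and Hbb-bt had no probe set of a single symbol. Of the tested markers of other cell types Cd68, a lysosomal and macrophage gene, rose (0.39, limma adjusted p = 0.0176), and no other was called. The part of cell state or other cells in the values below was not tested, and in bulk RNA fewer cells of a type and less RNA per cell cannot be told apart.

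All 10 members passed the filter on low values and were tested among 12633 genes with limma. None was called higher and none lower at an adjusted p under 0.05, where 1.53% of all genes were called. The members' adjusted p-values ran from 0.329 to 0.995. At an unadjusted p under 0.05 there were 2 members, Nqo1 and Gsta4, where 12.9% of all genes reached that level. With the replicate number as a block none of the members was called either, against 3.05% of all genes, and the lowest adjusted p was 0.0611. A fit with an intensity trend and robust prior called none of the members either. Over all genes the count of 193 calls went to 95, 92 and 123 when antisense replicate 3, 4 or 5 was left out and to 101 without scrambled replicate 3, and the members' count was 0 in each. For none of the 10 did the values of the groups stay apart, which they did for 3.92% of all genes. The members' median change was -0.01 and that of all genes tested 0.01, while the median size of change was 0.07 for the members and 0.05 for all genes. Of the members 6 lay below 0 (60%) and 4 above, where 44.9% of all genes lay below.

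**Figure D1:**
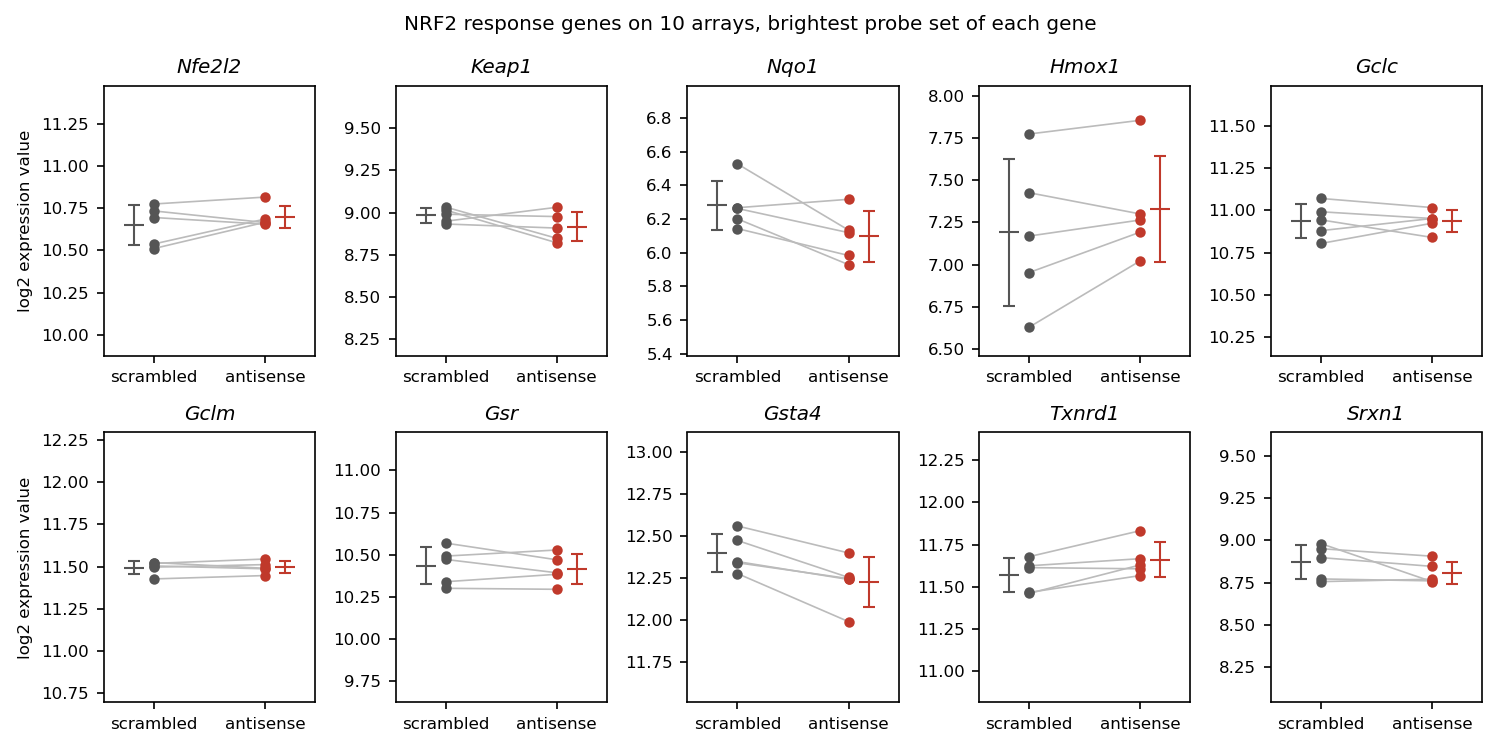
Deposited log2 expression values (y axis, each panel spanning the same range) of the 10 genes in scrambled (grey) and antisense (red) arrays. Points are single arrays, grey lines join arrays with the same replicate number, and the bars beside them are the mean and SD of 5 arrays; Hmox1 has the widest spread, from 6.63 to 7.85, and all 5 lines of Gsta4 slope down.

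Nfe2l2, the gene of NRF2 itself, read 10.78, 10.70, 10.73, 10.51 and 10.54 in scrambled arrays 1 to 5 and 10.82, 10.66, 10.67, 10.67 and 10.69 in antisense arrays 1 to 5. The antisense values lay close together apart from replicate 1, and all of the others fell inside the scrambled range. The change was 0.05 (SE 0.058, 95% interval -0.08 to 0.17, limma adjusted p = 0.812), a ratio of 1.03. Leaving out 1 array moved it between 0.012 (without scrambled replicate 4) and 0.078 (without scrambled replicate 1), and it was 0.017 without antisense replicate 1 and 0.019 without scrambled replicate 5. The other probe set of Nfe2l2 was dim, its scrambled mean being 4.24 ± 0.097 (SD, n = 5) and its antisense mean 4.43 ± 0.16 (SD, n = 5). This was the only one of the 20 probe sets under the filter level, and its change of 0.19 was not called over all probe sets (limma adjusted p = 0.437).

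Keap1, the inhibitor of NRF2, averaged 8.98 ± 0.043 (SD, n = 5) with the scrambled oligonucleotide, against 8.92 ± 0.088 (SD, n = 5) with the antisense. Its single scrambled values were 9.03, 9.01, 8.93, 8.95 and 8.99, and its antisense values 8.85, 8.82, 8.91, 9.03 and 8.98. Antisense replicates 1 and 2 were the lowest of the 10, while replicate 4 was level with the highest scrambled array. The change was -0.07 (SE 0.047, 95% interval -0.17 to 0.03, limma adjusted p = 0.613), and -0.04 without antisense replicate 2. A dimmer Keap1 probe set gave -0.10 (SE 0.10, adjusted p = 0.840), so both had the same sign and neither was called.

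Nqo1, the quinone reductase that serves as the usual reporter of NRF2 activity, had the most negative change of the members. It read 6.53, 6.20, 6.26, 6.14 and 6.27 in scrambled arrays 1 to 5 and 6.13, 5.93, 6.12, 5.98 and 6.32 in antisense arrays 1 to 5. Antisense replicates 1 to 4 lay under the lowest scrambled array, while antisense replicate 5 lay above all but 1 of the scrambled arrays. The change was -0.18 (SE 0.081, 95% interval -0.36 to -0.01), a ratio of 0.881 that did not pass (limma adjusted p = 0.358, and 0.160 with the replicate block). The interval covers this gene alone and is not adjusted for the number of genes. Without scrambled replicate 1, the highest of the 10, the change was -0.12.

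Hmox1, the heme oxygenase that frees iron and biliverdin from heme, varied most between arrays. Scrambled arrays 1 to 5 read 6.63, 7.17, 6.95, 7.43 and 7.77, and antisense arrays 1 to 5 read 7.02, 7.26, 7.19, 7.30 and 7.85. The lowest array of either group was replicate 1 and the highest was replicate 5, and the ranges overlapped widely. The change of 0.14 (SE 0.19, 95% interval -0.28 to 0.56, limma adjusted p = 0.841) had the widest interval of the members, which reached from 0.822-fold to 1.47-fold. With the replicate block the SE fell from 0.19 to 0.068, and the adjusted p was 0.359. The differences within pairs were 0.39, 0.10, 0.24, -0.13 and 0.08, so 4 of 5 pairs were higher with antisense. In the fit without the block, leaving out 1 array also broke a pair. There the change was -0.0036 without scrambled replicate 1 and 0.0046 without antisense replicate 5. It was 0.28 without scrambled replicate 5, 0.21 without antisense replicate 1 and 0.077 without scrambled replicate 3.

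Glutathione is made by glutamate-cysteine ligase, whose catalytic subunit is encoded by Gclc and whose modifier subunit by Gclm, and their brightest probe sets had the changes closest to 0 of the members. Gclc read 10.94, 11.07, 10.99, 10.80 and 10.88 in scrambled and 10.84, 11.02, 10.95, 10.92 and 10.95 in antisense arrays. Its change was -0.0015 (SE 0.053, 95% interval -0.12 to 0.11, limma adjusted p = 0.995), and its antisense arrays lay inside the scrambled range. The second Gclc probe set was at -0.06 (adjusted p = 0.838).

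Gclm read 11.43, 11.52, 11.50, 11.50 and 11.52 in scrambled and 11.45, 11.49, 11.49, 11.51 and 11.55 in antisense arrays, a range of 0.12 over all 10. The change was 0.0019 (SE 0.036, limma adjusted p = 0.992), and its 95% interval of 0.948-fold to 1.06-fold was the narrowest of the members. A second, dimmer Gclm probe set had a change of -0.08 (adjusted p = 0.803). Its scrambled values reached from 7.81 to 8.17 and its antisense values from 7.88 to 7.99, so the narrow interval of the brighter probe set does not extend to it.

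Gsr, the reductase that regenerates glutathione, was at 10.57, 10.49, 10.47, 10.34 and 10.30 in scrambled and 10.47, 10.53, 10.39, 10.38 and 10.30 in antisense arrays. In either group replicates 4 and 5 were the lowest arrays, and the change was -0.02 (SE 0.059, limma adjusted p = 0.937). The other Gsr probe set was also lowest in replicates 4 and 5 of either group, with a wider range, from 9.75 to 10.33 in scrambled and from 9.84 to 10.29 in antisense arrays. Its change was -0.0038 (adjusted p = 0.997), and its SE went from 0.12 to 0.052 with the replicate block.

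Gsta4, the glutathione transferase that clears the lipid peroxidation product 4-hydroxynonenal, was the one member lower in the antisense array of all 5 same-numbered pairs. That pattern was shown by 6.67% of all genes. Scrambled arrays read 12.47, 12.28, 12.35, 12.34 and 12.56 and antisense arrays 12.25, 11.99, 12.24, 12.25 and 12.40. The differences within pairs were -0.22, -0.28, -0.11, -0.09 and -0.16, though antisense replicate 5 lay above 3 of the scrambled arrays, so the groups overlapped. The change of -0.17 (SE 0.073, 95% interval -0.33 to -0.02), a ratio of 0.887, did not pass (limma adjusted p = 0.329, and 0.0611 with the replicate block). Without antisense replicate 2, the lowest of the 10, it was -0.11. Gsta4 has this 1 probe set, so no second one could be set beside it.

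Txnrd1, the cytosolic thioredoxin reductase, had the most positive change of the members after Hmox1. It read 11.61, 11.68, 11.62, 11.46 and 11.47 in scrambled and 11.61, 11.83, 11.67, 11.63 and 11.57 in antisense arrays. Antisense replicate 2 was the highest of the 10 and scrambled replicates 4 and 5 were the lowest, with the rest mixed. The change was 0.09 (SE 0.059, 95% interval -0.04 to 0.22, limma adjusted p = 0.580), and 0.05 without antisense replicate 2. The 2 other Txnrd1 probe sets, of lower level, were at 0.09 and 0.03 (adjusted p = 0.879 and 0.941). The dimmest is of a design whose probes may also bind other sequences.

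Srxn1, the sulfiredoxin that rescues over-oxidised peroxiredoxins, has 4 probe sets, the most of any member. The brightest read 8.98, 8.95, 8.90, 8.76 and 8.77 in scrambled and 8.76, 8.91, 8.85, 8.77 and 8.76 in antisense arrays, with replicates 4 and 5 low in both groups and replicate 1 low in the antisense group only. Its change was -0.06 (SE 0.053, 95% interval -0.18 to 0.05, limma adjusted p = 0.698), and -0.04 without scrambled replicate 1. The other 3 lay at -0.02, -0.03 and 0.0023, with adjusted p-values of 0.955, 0.949 and 0.997. The 4 did not share a sign, and none was called.

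**Figure D2:**
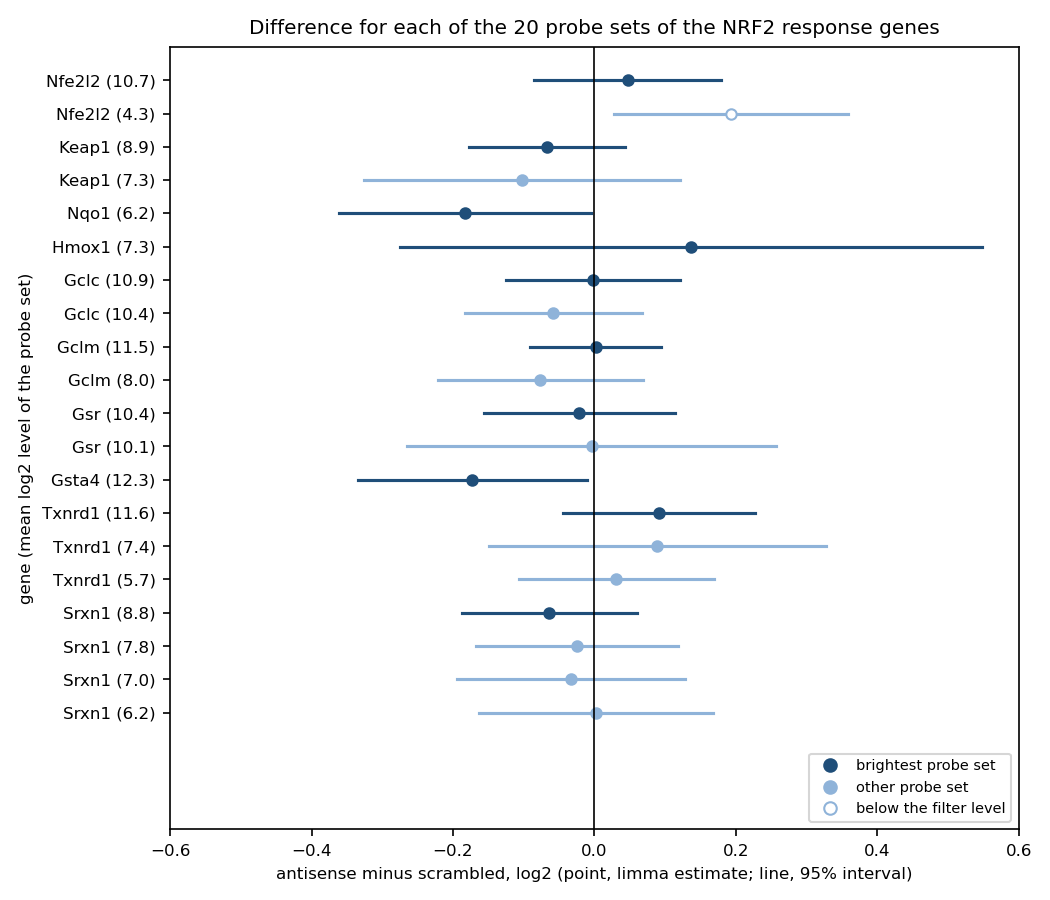
Antisense minus scrambled difference on the log2 scale (x axis) for each of the 20 probe sets, with 95% intervals from the limma fit over all probe sets, which differ slightly from those of the fit over genes; numbers in parentheses are mean log2 levels. Dark points are the brightest probe set of a gene, and all 20 points lie between -0.18 and 0.19.

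Over the 45037 probe sets that are not array controls, 0.266% were called and none of the members' 20 probe sets was. Of the 20, 3 had an unadjusted p under 0.05: those of Nqo1 and Gsta4 and the dim one of Nfe2l2. Over all probe sets 9.35% reached that level. Of the 7 members with several probe sets, Keap1, Txnrd1 and Nfe2l2 kept 1 sign over all of them. Gclc did so at changes of -0.0015 and -0.06 and Gsr at -0.02 and -0.0038, each with a value close to 0. Gclm and Srxn1 did not keep 1 sign.

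For several members arrays of the same replicate number deviated together. Fitting the number as a block lowered the SE of 9 of the 10 members, all but Keap1, and the median SE of all genes went from 0.053 to 0.043. Beside Hmox1, high in both arrays numbered 5 (0.52 and 0.60 above its mean), Gsr was low in both (-0.12 and -0.13) and Srxn1 too (-0.07 and -0.08). Gclm was lowest in both arrays numbered 1. Other members went apart there: Keap1 deviated by 0.08 in scrambled and -0.10 in antisense array 1, and Gsta4 by 0.16 and -0.06. What a shared number stands for is not given in the labels.

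**Figure D3:**
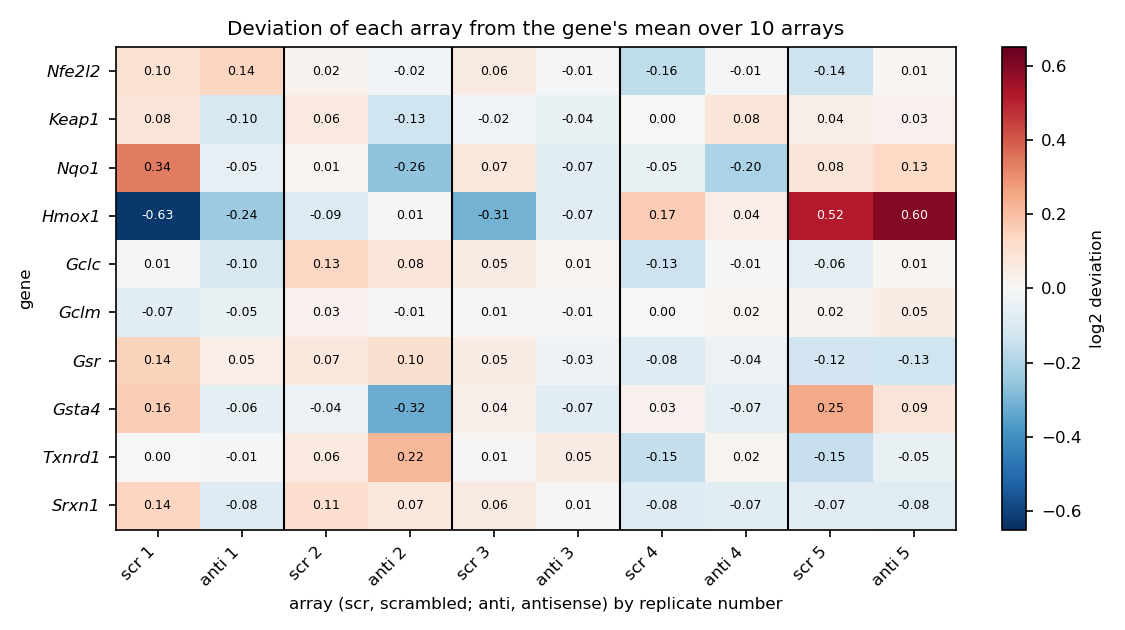
Deviation of each array from the gene's mean over 10 arrays (colour and printed value, log2), with the arrays of the same replicate number side by side (scr, scrambled; anti, antisense). Hmox1 goes from -0.63 in scrambled array 1 to 0.60 in antisense array 5, and arrays that share a number share a colour in some cases and not in others.

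The antioxidant response element through which NRF2 acts has a core that can be written TGACNNNGC, where N is any base. Promoter windows of 300 bases, 250 before and 50 after the annotated start, were searched on both strands in a table of RefSeq promoters (GRCm38.p6). The table used here, which is not complete, has an entry for 6 of the 10 members: Nfe2l2, Keap1, Nqo1, Gclm, Srxn1 and, with 3 starts, Txnrd1. Of these 8 windows 4 held the core, 1 each in Nfe2l2, Gclm, Srxn1 and Txnrd1. Of all 32851 windows searched, 12.4% held it. The stretches are shown because they are the letters that a reader would compare with the element, with the matching 9 bases in capitals and 10 bases on each side.
Nfe2l2: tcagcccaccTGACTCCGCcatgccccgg
Gclm: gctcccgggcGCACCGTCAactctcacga
Txnrd1: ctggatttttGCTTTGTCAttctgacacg
Srxn1: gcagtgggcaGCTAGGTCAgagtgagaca
The Nfe2l2 stretch (chr2:75704885-75704913, minus strand) reads the core on the gene's strand, with its first base 240 bases before the start. The Gclm (chr3:122245413-122245441, plus strand), Txnrd1 (chr10:82859104-82859132, plus strand) and Srxn1 (chr2:152105542-152105570, plus strand) stretches hold it on the opposite strand, so the capitals are its reverse complement. These begin 134 and 92 bases before the start for Gclm and Txnrd1, and at base 29 after it for Srxn1. The windows of Keap1 and Nqo1 and the other two of Txnrd1 held no match, which says only that these letters are not in them. A match is a description of letters and not a shown binding site. The 4 members with a match had changes of 0.05, 0.0019, 0.09 and -0.06, in the order Nfe2l2, Gclm, Txnrd1 and Srxn1, and none was called.

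Beyond the members, 8 lists of related genes held 78 genes, of which 68 were tested, 3 lay under the filter level and 7, without a probe set of a single symbol, were not used here. None of the 68 was called, where 1.53% of all genes were, and 11 had an unadjusted p under 0.05 (16.2%, against 12.9% of all genes). Their median change was -0.01, with 38 below 0 (55.9%, against 44.9% of all genes). With the replicate block 3 were called (4.41%, against 3.05% of all genes): Gsta2 rose, and Gstm1 and Aldh1a1 fell. By the brightest probe set of each gene, only Cul3 and Bach1, 2 of the 68 (2.94%, against 3.92% of all genes), had groups without overlap. For Bach1 they barely stayed apart, the highest antisense array reading 8.267 and the lowest scrambled array 8.270. A second Sod1 probe set, not counted here, also had groups without overlap.

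The glutathione list, of transporters, peroxidases and transferases, had the widest spread, with 14 of 19 tested genes below 0 and a median of -0.05, where 44.9% of all genes lay below 0. Gsta2, an alpha class transferase, read 7.36, 7.19, 7.34, 7.41 and 7.54 in scrambled and 7.53, 7.52, 7.70, 7.75 and 7.93 in antisense arrays. All 5 pairs were higher with antisense, and the groups overlapped by scrambled replicate 5 alone. The change was 0.32 (SE 0.081, limma adjusted p = 0.0738, and 0.00890 with the replicate block). A near-identical Gsta1 exists, so this value may hold signal from both genes' transcripts.

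Gstm1, a mu class transferase, went the other way. It read 9.30, 8.99, 9.14, 9.16 and 9.49 in scrambled and 8.85, 8.23, 8.79, 8.84 and 9.03 in antisense arrays, lower with antisense in all 5 pairs but overlapping by antisense replicate 5. The change was -0.47 (SE 0.13, limma adjusted p = 0.107, and 0.0106 with the replicate block). Of its 3 other probe sets, 2 were at -0.46 and -0.23, and the dimmest was at -0.05. The brightest and the one at -0.23 are of a design whose probes may also bind other sequences, and the one at -0.46 is not. Gstm1, Gsta2 and Gsta4 had their lowest antisense and lowest scrambled arrays at number 2 and their highest at number 5. Slc3a2, the heavy chain of the cystine transporter, had a change of -0.14 (adjusted p = 0.286) in the same list.

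Among the quinone and carbonyl enzymes 6 of 11 lay below 0 (median -0.03). Aldh1a1, a retinal and aldehyde dehydrogenase, was at 10.19, 9.74, 9.99, 9.89 and 10.43 in scrambled and at 9.74, 9.44, 9.76, 9.67 and 10.05 in antisense arrays. It was lower with antisense in 5 of 5 pairs, by a change of -0.31 (SE 0.13, limma adjusted p = 0.303, and 0.0119 once the replicate block was added). The carbonyl reductases Cbr3 (-0.17) and Cbr1 (-0.19) were not called (adjusted p = 0.149 and 0.219).

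Of the 11 partners and regulators of NRF2 none was called with or without the block, and their median was -0.0045. Cul3, the ligase scaffold that KEAP1 recruits, had a change of -0.10 (SE 0.037, limma adjusted p = 0.242), from a scrambled mean of 9.93 ± 0.046 (SD, n = 5) to an antisense mean of 9.83 ± 0.029 (SD, n = 5). Its other probe sets ranged from -0.12 to 0.03, so this does not hold over all of them. Bach1, the repressor that competes for the same elements, was at -0.14 (adjusted p = 0.321) and at -0.09 without antisense replicate 2, with a second probe set at -0.0066. Dpp3, a peptidase that binds KEAP1, was at 0.09 (adjusted p = 0.382).

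The other 5 lists had no call by either fit. The thioredoxin and peroxiredoxin genes had 6 of 8 above 0 (median 0.04), with Txn2 at 0.12, Prdx3 at -0.05 and Prdx4 at 0.06. The NADPH suppliers had 4 of 5 below 0 (median -0.04), with Pgd at -0.04, Me1 at -0.07 and Tkt at -0.04. In the heme and iron list (median 0.02) the iron exporter Slc40a1 was at -0.19, the heme transporter Slc48a1 at 0.05 and the biliverdin reductase Blvra at 0.06. The dismutases and catalase gave -0.08 for Sod1, -0.07 for Cat and 0.03 for Sod2. The aryl hydrocarbon receptor shares Nqo1 as a target with NRF2. In its list Arnt was at -0.07, Ahr at 0.03 and Cyp1b1 at 0.04. The other Arnt probe sets ranged from 0.02 to 0.16, so the sign of the brightest does not hold over them. The limma adjusted p-values of the genes named here, by their brightest probe sets, ran from 0.378 to 0.924.

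**Figure D4:**
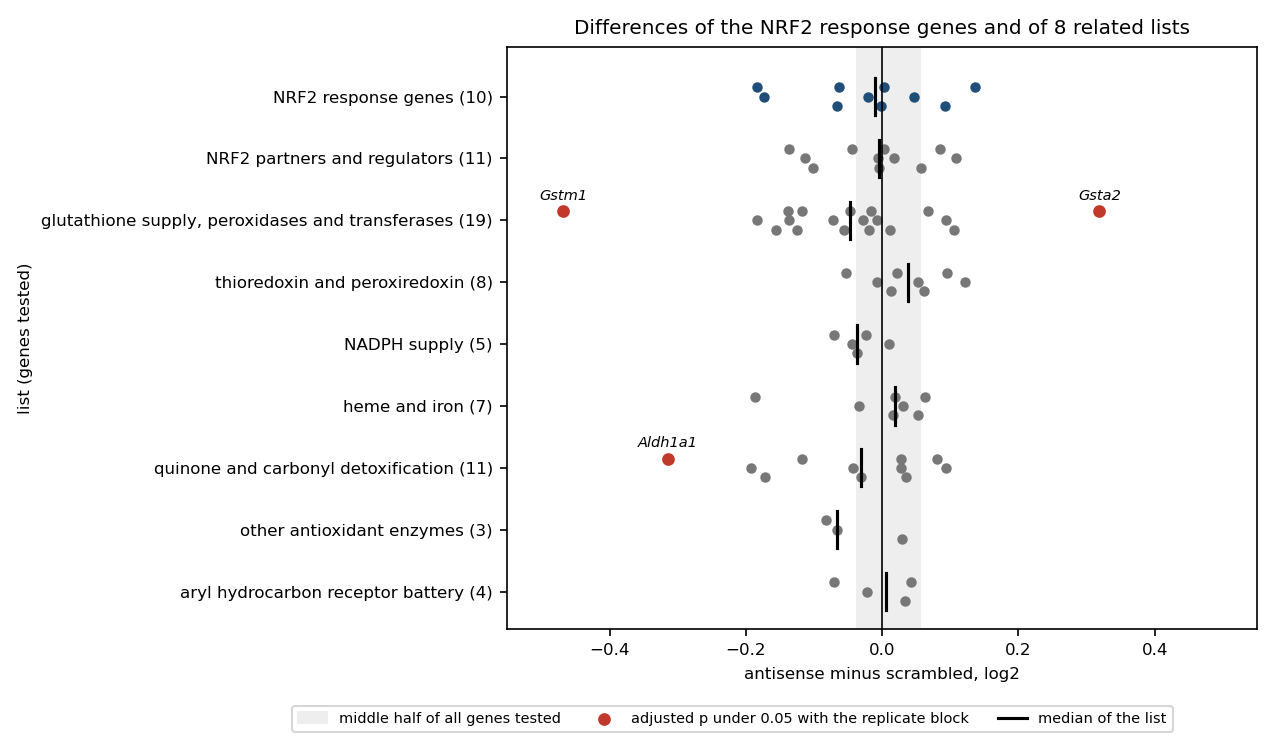
Antisense minus scrambled difference on the log2 scale (x axis) of each tested gene in the NRF2 response genes (blue) and in 8 related lists, with each list's median as a black bar; the grey band runs between the quartiles of all 12633 genes, at -0.04 and 0.06. Red points, Gstm1, Gsta2 and Aldh1a1, are the 3 called with the replicate block.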

How the data were processed

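Total RNA from 10 samples of 1 cell line was amplified and tagged with biotin (MessageAmp Premier, per the labels' protocols) and read on arrays whose probe set names are Affymetrix's. The authors deposited a single table with 1 value per probe set for every array, and the range of the values (highest 14.2) shows that the deposited scale is log2. How they summarised, background-corrected and normalized the arrays is not given in the sources used here. Groups and replicate numbers came from the titles.

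The annotation gave 1 symbol for 34945 of 45037 probe sets, and 34741 matched a current gene. For each gene the probe set with the highest mean was kept, and genes with a mean under 4.56, the 40th percentile of probe sets, were left out. The test was limma's (version 3.58.1, under R 4.3.3; lmFit and eBayes, two-sided, Benjamini-Hochberg over 12633 genes, threshold 0.05). A second fit covered all probe sets. The procedure was tested on simulated data. Precision is limited by having 5 arrays a group.

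The members and lists were chosen with earlier results of these data known. Named were all members, the 3 genes of each list with the smallest p, and any called. Over all genes, the antisense and scrambled arrays of a number, each taken as deviation from its group's mean, had r of 0.172, 0.377, 0.112, 0.152 and 0.335, against -0.312 to 0.231 for arrays of different number. All exceed the 0.1 set for pairing, so differences within pairs and a fit with the replicate block are given. The main fit, with its intervals and adjusted p-values, leaves the numbers out. This pairing comes from the values, and the labels do not state it. Alternatives were a replicate block, quantile normalization, median centring, 2 other filters, averaged probe sets, another variance prior and each array left out. Figures were drawn with matplotlib 3.10.9.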

Additional observations from a re-analysis of the deposited data

Results flagged for a closer look

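Of 88 groups of 5 arrays examined (each member probe set and each named gene of the related lists, in either group), 4 had 1 array far from the others, about as many as the 1 in 20 that chance gives. For Nfe2l2, antisense replicate 1 read 10.816 against 10.655 to 10.686 in the others. For Gclm, scrambled replicate 1 read 11.427 against 11.497 to 11.524. For Prdx4, antisense replicate 4 read 10.625 against 10.437 to 10.462, and for Me1, antisense replicate 4 read 11.839 against 11.962 to 11.994.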

How the results depend on the processing

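The 10 changes of the members kept their direction in 158 of 170 alternative values, turned in 12 and passed the threshold in none (limma adjusted p from 0.0611 up). The other probe sets kept theirs in 120 of 140 and turned in 20. The named genes of the related lists kept direction and side of the threshold in 400 of 408, with 4 turned and 4 newly past it. With the replicate block the count over all genes went from 193 to 385, with 184 shared, and that of the related lists from 0 to 3; the block changed no call among the members. With the trend and robust prior these counts were 303 and 1, the 1 being Gsta2. Leaving out 1 array gave 92 to 201 calls over all genes. Median centring put Gclm at -0.000948 and averaging probe sets put it at -0.037, Sod2 at -0.048 and Arnt at 0.044. The dimmest Srxn1 probe set was at -0.0082 after quantile normalization and -0.000518 after median centring.

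With 1 array left out, changes that turned ranged from -0.035 to 0.032 for Gclc, -0.015 to 0.014 for Gclm, -0.055 to 0.012 for Gsr, -0.0036 to 0.28 for Hmox1 and -0.056 to 0.10 for Cyp1b1. Among other probe sets they ranged from -0.010 to 0.16 and -0.020 to 0.051 for Txnrd1, from -0.066 to 0.011, -0.072 to 0.019 and -0.045 to 0.049 for Srxn1, and from -0.080 to 0.065 for Gsr. The cause of these turns was not tested. Alternatives for the related lists and for the count of probe sets were chosen after seeing the data. Signal over background was not analysed here, so how far it limits the dimmer probe sets was not tested.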
